A study of Mus musculus with 6 samples.

Results

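The genes of the mitochondrial ribosome encode the proteins of the second ribosome of the cell, which sits in the mitochondrial matrix. They were chosen by symbol: the protein-coding rows of the deposited table whose name is Mrpl or Mrps followed by a digit. The rule found 77 genes, 48 with large subunit symbols (Mrpl) and 29 with small subunit symbols (Mrps), among 17402 protein-coding rows and 27884 rows in all. No measured value enters the rule, but the family was taken up with results of the comparison below known. Its values are therefore given as a description, read beside the share of all genes called.

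The samples came from the preoptic area of the hypothalamus of NuTRAP::Pnoc-Cre female mice aged 17 to 18 weeks. In NuTRAP mice Cre turns on L10a, a ribosomal protein, fused to EGFP, and here Cre was driven by Pnoc, the gene of the nociceptin precursor. Ribosomes pulled down with an antibody against GFP gave 3 IP libraries, and total RNA of the same tissue gave 3 input libraries, each pair from a pool of 3 mice. Both groups carry the same alleles, and no group lacked the tag or Cre. The tag marks ribosomes of the cytosol, so that the libraries hold messages of mitochondrial ribosomal proteins and show nothing of the mitochondrial ribosomes themselves.

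Mitochondrial ribosomes translate the messages of the mitochondrial genome, all of which encode subunits of the oxidative phosphorylation complexes. Their RNAs come from the mitochondrial genome, whereas all their proteins are encoded in the nucleus, made in the cytosol and imported. The large subunit joins amino acids and passes the growing chain through an exit tunnel to the inner membrane, and the small subunit reads the message. Many of the proteins have a counterpart in bacteria, and others were gained by mitochondria. Neurons depend on oxidative phosphorylation for the energy that firing and synapses use.

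Total counts ran from 48204567 to 53056642 per library, and all 77 genes passed the filter on low counts. Levels are given as CPM, counts per library size after scaling with edgeR's TMM factors, where 3 counts correspond to between 0.0551 and 0.0651 CPM. Pnoc had a log2 fold change of IP over input of 2.06 ± 0.22 (SE). The summed level of 5 neuronal markers was 4927 to 6383 CPM in input and 7383 to 8626 CPM in IP. Of these 5 Snap25, which made up most of the sum, and Tubb3 were called higher, Syt1 and Stmn2 were not called, and Rbfox3 stood at -0.06 ± 0.21 (SE). Defining markers of glia were all called lower, 5 of 5 for astrocytes (780 to 868 CPM summed in input, 74.7 to 109 in IP), 5 of 5 for oligodendrocytes (3962 to 5118 and 509 to 738) and 5 of 5 for microglia (118 to 134 and 11.1 to 17.0). These shifts in cell type markers came with the values below, and their part in them was not tested. The IP and input libraries of a pool came from the same tissue, so that these values describe RNA and not numbers of cells.

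Messages of most mitochondrial ribosomal proteins were higher in IP than in input. Of the 77 genes 52 (67.5%) were called higher and 0 lower at an adjusted p under 0.05 in edgeR's quasi-likelihood test over all genes. At an unadjusted p under 0.05, 61 were higher and 0 lower, and DESeq2 called 55 higher and 0 lower. Over all 18640 genes tested 12.9% were called higher and 17.1% lower, and over the 14939 protein-coding genes 15% and 19%. The median log2 fold change was 0.72, with the middle of the family between 0.44 and 0.96, against -0.07 over all genes and -0.07 over protein-coding genes. The estimate was above 0 for 76 of 77 genes, the exception being Mrps22, and for 46.8% of all genes. All 3 IP libraries lay above all 3 input libraries for 65 members and below for 0, where 21.7% of all genes lay above and 26% below. Only 15 of the members called reached a 2-fold difference, so that the shift was broad and of moderate size. The authors' deposited table, made with DESeq2, calls 55 members higher and 0 lower with a median log2 fold change of 0.74, and holds all 52 called here. It rests on the same counts and method as the DESeq2 fit above, so that it is not a separate result.

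**Figure D1:**
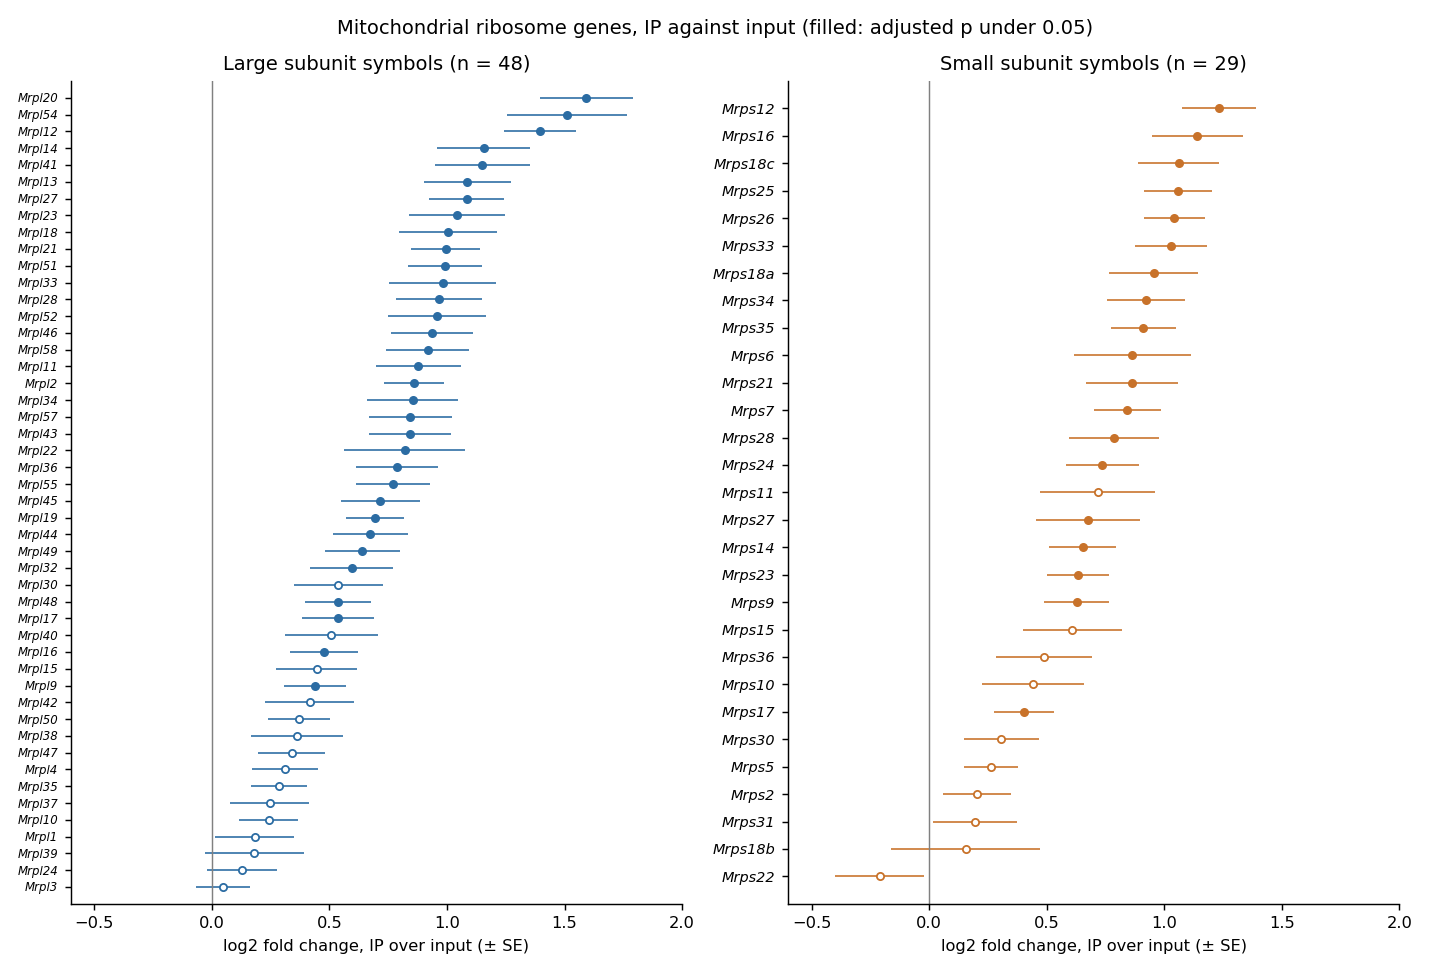
Log2 fold change of IP over input (x axis) for each gene with a large subunit symbol (left, 48 genes) and a small subunit symbol (right, 29 genes), with bars for ± 1 SE from edgeR's fit to 3 IP and 3 input libraries and filled points for genes called at an adjusted p under 0.05. The estimates run from -0.21 for Mrps22 to 1.59 for Mrpl20, and 52 points are filled, all of them above 0.

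The 5 largest differences belonged to Mrpl20, Mrpl54, Mrpl12, Mrps12 and Mrpl14. Mrpl20 (ENSMUSG00000029066, chr4:155887335-155894432, plus strand, mm39), a large subunit protein with a bacterial counterpart, had 133.6, 130.4 and 154.0 CPM in IP replicates 1, 2 and 3 and 33.8, 47.8 and 57.0 CPM in input. Its lowest IP library thus stood far above its highest input library, and the gene rose by 1.59 ± 0.20 (SE) on the log2 scale, a 3.01-fold difference. Mrpl54 (chr10:81100547-81102768, minus strand), a protein gained by mitochondria, had 59.0, 64.1 and 81.1 CPM in IP and 15.0, 27.9 and 28.7 CPM in input. It rose by 1.51 ± 0.26 (SE), but 94.4% of its exon bases overlap Matk, a kinase gene, in GENCODE M39. Its canonical transcript there has 4069 bases, against a gene length of 825 in the deposited table. The share may therefore not hold for the bases counted. Whether counting used strand is not given in the sources used here, so that reads of overlapping genes cannot be told apart.

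Mrpl12 (chr11:120375439-120379891, plus strand) belongs to the stalk, the flexible arm that recruits translation factors. It had 193, 184 and 203 CPM in IP and 60.3, 86.2 and 74.0 CPM in input, and rose by 1.39 ± 0.15 (SE). Its IP libraries lay close together, and each input library held less than the lowest of them. Mrps12 (chr7:28439066-28441245, minus strand), which lines the decoding site of the small subunit, had 105, 102 and 117 CPM in IP and 37.7, 53.0 and 47.0 CPM in input. It rose by 1.23 ± 0.16 (SE), the largest value among the small subunit symbols. Mrpl14 (chr17:45997248-46009421, plus strand) had 38.8, 40.0 and 41.5 CPM in IP and 12.9, 21.0 and 20.1 CPM in input, and rose by 1.16 ± 0.20 (SE). By GENCODE M39, 19.3% of the exon bases of Mrps12 overlap Sars2 and 23.7% of those of Mrpl14 overlap Tmem63b. In each of these 5 genes input replicate 1 held the lowest level of the 6 libraries.

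At the other end the groups overlapped. Mrps22 (ENSMUSG00000032459, chr9:98470783-98483713, minus strand), a small subunit protein gained by mitochondria, had 24.9, 24.0 and 20.1 CPM in IP and 23.2, 33.2 and 23.3 CPM in input, with a log2 fold change of -0.21 ± 0.19 (SE). The input library of replicate 2 stood above the rest, and without it the estimate was 0.023. Mrpl3, which reaches towards the peptidyl transferase centre, had 80.9, 73.4 and 77.4 CPM in IP and 74.7, 77.5 and 72.0 CPM in input (0.05 ± 0.12, SE). By CPM Mrpl3 was thus among the higher members, without a difference between the groups beyond the spread of the libraries. Per kb of gene length it held 11.4 CPM, below the family median of 21.0. That length is 6661 bases, against 3972 in its canonical transcript in GENCODE M39, so that this value rests on the length used. With library totals as the only scaling its estimate was -0.058.

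Mrpl24, a protein at the tunnel exit, had 33.5, 29.4 and 25.7 CPM in IP and 27.3, 28.6 and 25.3 CPM in input (0.13 ± 0.15, SE). Mrps18b had 6.23, 9.78 and 6.09 CPM in IP and 4.35, 8.71 and 6.78 CPM in input (0.15 ± 0.32, SE), the lowest level of the family and the widest SE. Mrpl39 had 45.0, 46.8 and 41.6 CPM in IP and 27.3, 49.7 and 40.8 CPM in input (0.18 ± 0.21, SE). In Mrpl39 the input library of replicate 2 stood above all 3 IP libraries and that of replicate 1 far below them. Without input replicate 1 the estimate was -0.018 for Mrpl39 and -0.065 for Mrps18b, and without IP replicate 2 it was -0.10 for Mrps18b.

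The subunits did not separate. Of 48 genes with large subunit symbols 33 were called higher, with a median log2 fold change of 0.74 and a range of 0.05 to 1.59, and of 29 with small subunit symbols 19, with a median of 0.72 and a range of -0.21 to 1.23. The medians lie closer together than the SE of any single member. Per library the summed level of the large subunit genes was 1.84, 1.93 and 1.89 times that of the small subunit genes in input replicates 1, 2 and 3 and 1.91, 1.92 and 1.92 times in IP. Symbols do not always match the subunit, since Mrps18a and Mrps30 carry small subunit names but are known to sit in the large subunit. With them moved, 34 of 50 and 18 of 27 were called higher, and the medians were 0.74 and 0.72. Mrps36, which counts here by its symbol, is known as a part of the alpha-ketoglutarate dehydrogenase complex, and stood at 0.49 ± 0.20 (SE) without a call, but was called with the replicate number as a block.

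Proteins with a bacterial counterpart and the other members gave like values. Beside proteins gained by mitochondria, the others take in Mrps36 and, as extra copies of a bacterial protein, Mrps18a and Mrps18b. Of 46 conserved members 32 were called higher, with a median log2 fold change of 0.75, and of the 31 others 20, with a median of 0.68. Within the large subunit the medians were 0.78 over 30 conserved and 0.69 over 18 other members, and within the small subunit 0.73 over 16 and 0.68 over 13. The share called was 67.5% over the family and lay between 61.5% and 70% in these 4 groups.

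By place in the ribosome, the large subunit stalk held 1 of the largest values beside 1 of the smaller ones. In the stalk Mrpl12 (1.39) and Mrpl11 (0.88 ± 0.18, SE) rose, and Mrpl10, which anchors the stalk, stood at 0.24 ± 0.13 (SE). Of 7 proteins around the tunnel exit 5 were called higher with a median of 0.67, among them Mrpl23 at 1.04 ± 0.20 and Mrpl45, which ties the ribosome to the inner membrane, at 0.72 ± 0.17 (SE). Mrpl24 and Mrpl47 (0.34 ± 0.14, SE) were not called. In the fits without 1 library, Mrpl22 lost its call in 4, Mrpl17 and Mrpl45 in 3 each and Mrpl44 in 1, while Mrpl23 kept its call. Mrpl22 also lost its call with the length correction, with upper-quartile factors and with library totals alone. Of 6 proteins of the central protuberance, the crown of the large subunit, 4 were called higher with a median of 0.74, led by Mrpl27 at 1.08 ± 0.16 and Mrpl18 at 1.01 ± 0.21 (SE). Mrpl38 at 0.36 ± 0.19 and Mrpl40 at 0.51 ± 0.20 (SE) were not called there, and Mrpl40 was called with the block. Mrpl48 of the same group lost its call in 4 of the fits without 1 library.

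Of 4 proteins on the peptidyl transferase side, where peptide bonds form, 2 were called higher, Mrpl2 at 0.86 ± 0.13 and Mrpl16 at 0.48 ± 0.14 (SE). Mrpl16 lost its call with library totals alone and in 5 of 6 fits without 1 library, all but that without input replicate 2. Their median of 0.39 was the lowest of the groups by place, with Mrpl4 at 0.31 ± 0.14 (SE) and Mrpl3 not called. Mrpl58, a peptidyl-tRNA hydrolase that frees stalled chains and has become part of the large subunit, rose by 0.92 ± 0.18 (SE). In the small subunit Mrps12 and Mrps24 (0.74 ± 0.16, SE) rose among 3 proteins of the decoding site and message entry, and Mrps5 stood at 0.26 ± 0.12 (SE). Of 7 proteins of the small subunit head 5 were called higher with a median of 0.65, among them Mrps33 at 1.03 ± 0.15 and Mrps35 at 0.91 ± 0.14 (SE), while Mrps10 at 0.44 ± 0.22 and Mrps31 at 0.19 ± 0.18 (SE) were not. Mrps10 was called higher with the block. Mrps9 of the same group lost its call in 1 of the fits without 1 library.

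The Mrps18 paralogs, copies of one bacterial protein that take up different places in the ribosome, differed in level and call. Mrps18a, the copy in the large subunit, had 94.0, 98.5 and 107.8 CPM in IP and 38.3, 63.5 and 53.1 CPM in input and rose by 0.96 ± 0.19 (SE). Mrps18c had 23.3, 21.6 and 26.8 CPM in IP and 9.76, 11.9 and 12.7 CPM in input and rose by 1.06 ± 0.17 (SE). In GENCODE M39 76.9% of its exon bases overlap Abraxas1, but its canonical transcript there has 3718 bases against 1076 in the deposited table. The IP and input values of Mrps18a and Mrps18c did not overlap, whereas those of Mrps18b did. Mrps30, the other small subunit name within the large subunit, had 32.9, 28.9 and 29.1 CPM in IP and 24.4, 28.2 and 20.8 CPM in input (0.31 ± 0.16, SE) and was not called, although its groups did not overlap.

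Per kilobase of the gene length in the table, Mrpl41 had the highest level of the large subunit symbols, with a mean of 108 CPM per kb over the 6 libraries, before Mrpl12 at 87.1 and Mrpl27 at 68.1. Mrpl33 had the lowest at 2.63 CPM per kb. Its gene length is 7326 bases, but its canonical transcript in GENCODE M39 has 732, so that its place rests on the length used. Among small subunit symbols Mrps21 (74.3 CPM per kb), Mrps12 (74.0) and Mrps33 (46.9) led, and Mrps18b was lowest at 3.35. These 6 leading genes were all called higher.

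Mrpl41 had 126.0, 125.2 and 146.1 CPM in IP and 42.2, 72.6 and 64.2 CPM in input, and rose by 1.15 ± 0.20 (SE). In GENCODE M39 41.9% of its exon bases overlap Dph7, and its canonical transcript has 1572 bases against a gene length of 888. Mrpl27 had 91.8, 92.5 and 89.3 CPM in IP and 36.3, 52.4 and 40.4 CPM in input. Mrps21 had 68.8, 66.8 and 77.0 CPM in IP and 28.7, 49.0 and 39.2 CPM in input, and rose by 0.86 ± 0.20 (SE). In these genes, too, the IP libraries lay close together and the input libraries apart. Mrps33 had 115, 95.9 and 104 CPM in IP and 42.9, 57.9 and 53.7 CPM in input. On the log2 scale the widest spread between input libraries, an SD of 0.52, was that of Mrpl22, with 10.5, 20.8 and 18.8 CPM, against 33.2, 30.0 and 25.2 CPM in IP. The widest between IP libraries on that scale, an SD of 0.37, was that of Mrpl33, with 23.7, 19.8 and 33.2 CPM, against 10.6, 14.9 and 13.4 CPM in input.

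The threshold parted genes of like size. Just inside it were Mrps27 at 0.68 ± 0.22 (SE), with 32.4, 37.4 and 34.0 CPM in IP and 14.9, 27.5 and 22.6 CPM in input, and Mrps17 at 0.40 ± 0.13 (SE), with 83.6, 82.9 and 99.1 CPM against 66.5, 64.2 and 70.2 CPM. Just outside were Mrps11 at 0.72 ± 0.24 (SE), with 40.7, 35.3 and 37.0 CPM in IP and 15.0, 30.7 and 23.2 CPM in input, and Mrps15 at 0.61 ± 0.21 (SE), with 64.5, 71.0 and 71.6 CPM against 31.0, 55.3 and 49.4 CPM. In all 4 genes the groups did not overlap. With the replicate number as a block, Mrps11 and Mrps15 were called higher, as were Mrpl15, Mrpl30, Mrpl40, Mrpl42, Mrps10 and Mrps36, and 60 members in all.

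The size of the difference varied between the replicates, chiefly through the input libraries. The summed level of the 77 genes was 2562, 3569 and 3167 CPM for replicates 1, 2 and 3 of the input, against 5065, 5027 and 5417 CPM for those of the IP, so that the groups did not overlap. The ratio of the sums within a replicate was 1.98, 1.41 and 1.71. The median log2 difference within a replicate was 0.98, 0.43 and 0.69, where that of all genes was -0.07, -0.02 and -0.04. IP exceeded input for 77, 72 and 74 members in replicates 1, 2 and 3, and in all 3 for 70.

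Input replicate 1 was the lowest of the input libraries for 71 of 77 members (92.2%), as it was for 40.7% of all genes. Input replicate 2 was the highest for 67 members (87.0%), as it was for 36.7% of all genes. The related families moved in the same way: relative to the other input libraries, input replicates 1 and 2 had median log2 differences of -0.39 and 0.35 over the members, -0.47 and 0.29 over cytosolic ribosomal protein symbols and -0.55 and 0.45 over complex I symbols. The median spread between the input libraries, as the SD of log2 CPM, was 0.26 for members and 0.25 for protein-coding genes, and between the IP libraries 0.11 and 0.18. The count of calls was lowest without both libraries of replicate 3, and the reason was not tested. In that fit 4 members were called higher (Mrpl12, Mrpl20, Mrpl21 and Mrps26, named after their values were seen). Of all genes 0.705% were then called higher, against 12.9% in the main fit. The median of the members was then 0.73 and 44 were higher at an unadjusted p under 0.05. Without both libraries of replicate 1 or 2 the counts were 42 and 46.

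**Figure D2:**
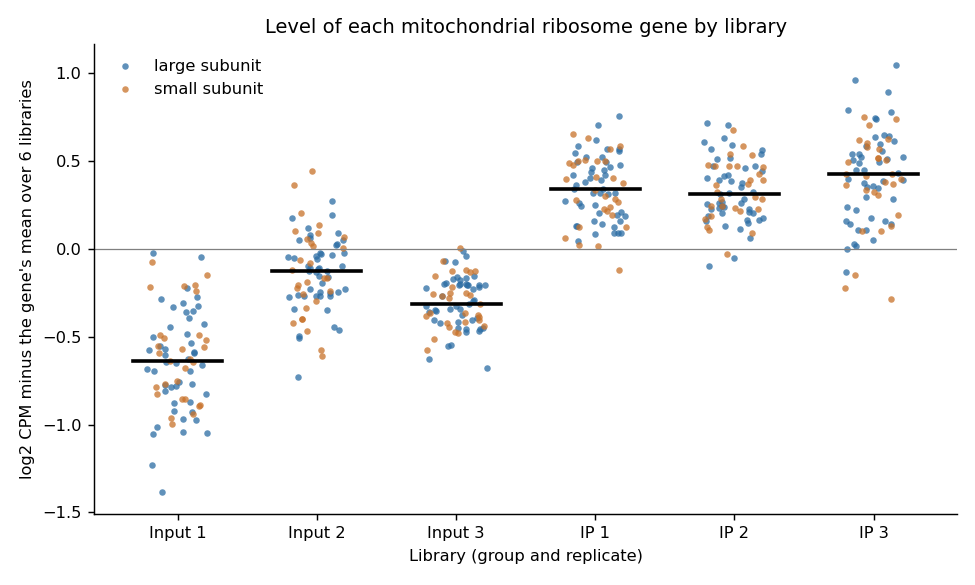
Level of each of the 77 genes in each library (x axis) as log2 CPM minus the mean of that gene over the 6 libraries (y axis), with large subunit genes in blue, small subunit genes in orange and the median of all members as a black line. The points of input replicate 1 lie lowest and those of input replicate 2 highest among the input libraries, while the 3 IP libraries stand at like levels.

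Mitochondrial ribosome genes were short, and the shorter ones differed more. The median gene length in the table was 2533 bases for members and 4426 bases for protein-coding genes tested, and the median coding length of the GENCODE canonical transcript 588 and 1401 bases. Members had a median of 5 exons and protein-coding genes 9. Across the 77 genes, which share libraries and are not independent replicates, the log2 fold change fell with gene length at a Spearman rho of -0.40, at -0.42 over 48 large and -0.32 over 29 small subunit genes. Over all protein-coding genes rho was -0.26. With coding length rho was -0.54 over the members and -0.31 over protein-coding genes.

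Of the 39 members up to the median gene length 30 were called higher, with a median log2 fold change of 0.84, and of the 38 longer ones 22, with a median of 0.54. Split at the median coding length, 33 of 39 and 19 of 38 were called higher, with medians of 0.86 and 0.49. Mrpl54 has 405 coding bases and Mrps22 has 1077. Mrps27 was called higher although it has 1245.

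Protein-coding genes were divided by gene length into 5 classes of near-equal size, and in each class the median of the members was above that of the class. In the shortest class, up to 2482 bases, the median was 0.85 over 38 members, of which 30 were called higher, against 0.33 over all protein-coding genes, of which 27.0% were. In the second class it was 0.51 over 16 members with 9 called against 0.07 with 17.9%, and in the third 0.34 over 9 with 4 called against -0.06 with 14.5%. The fourth gave 0.54 over 9 with 6 called against -0.18 with 10.1%, and the longest 0.54 over 5 with 3 called against -0.30 with 5.25%. By coding length 53 members fell in the shortest class, up to 762 bases, with 43 called and a median of 0.85, against 0.37 with 33.1%. The second class gave 0.44 over 20 with 8 called against 0.07 with 17.6%. The third gave 0.29 over 4 with 1 called against -0.07 with 11.8%, and no member fell in the longer classes. With each library corrected for gene length, 53 members were called higher and the median was 0.64, while rho with gene length was -0.058.

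The input libraries also differed by length. Relative to the mean of the other input libraries, input replicate 1 had a median log2 difference of -0.27 in the shortest class of protein-coding genes and 0.27 in the longest, and -0.39 over the members. Input replicate 2 had 0.20 in the shortest class, -0.23 in the longest and 0.35 over the members. In input replicate 3 these medians were 0.06, -0.03 and 0.09. The members therefore moved with the short genes of each input library, and the part of length in their spread was not tested beyond the correction given above.

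**Figure D3:**
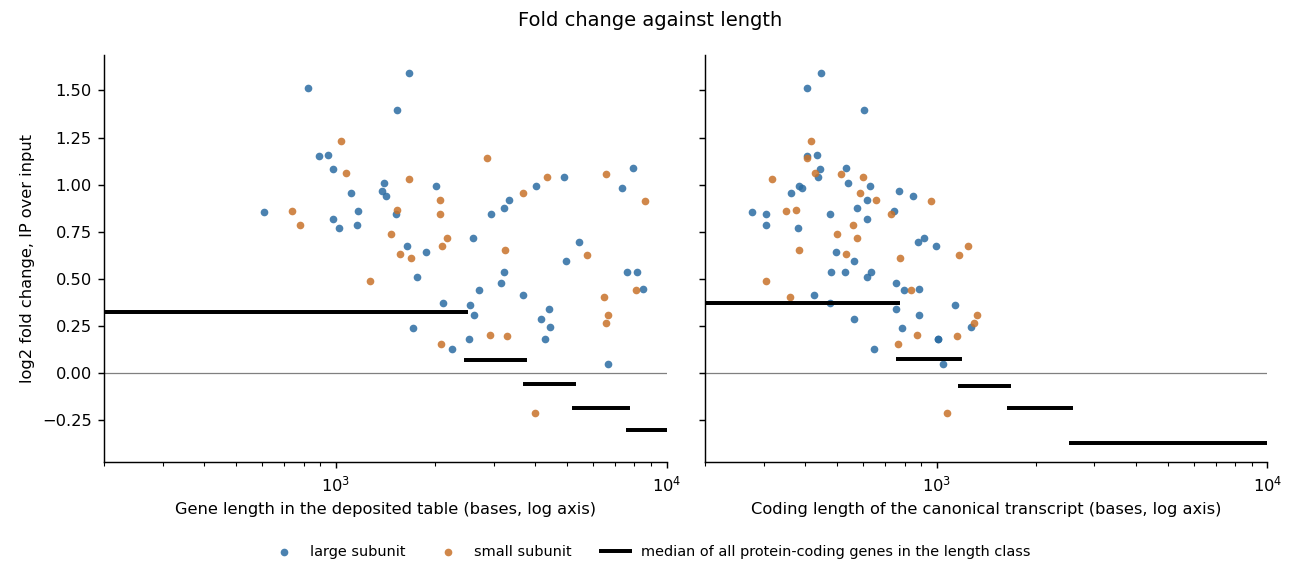
Log2 fold change of IP over input (y axis) against the gene length of the deposited table (left) and the coding length of the GENCODE canonical transcript (right), both in bases on a log axis, for large (blue) and small (orange) subunit genes. Black lines mark the median of all protein-coding genes in each of the 5 length classes, from 0.33 in the shortest to -0.30 in the longest by gene length, with the longest class running beyond the axis, and most members lie above them.

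The genes are scattered over 17 chromosomes, and 14 of 77 (18.2%) start within 1000 bases of a gene on the opposite strand that runs the other way, as 6.73% of protein-coding genes do. Among these partners are Psma2, a proteasome subunit gene, beside Mrpl32, Twnk, the mitochondrial DNA helicase gene, beside Mrpl43, Fau, which encodes a cytosolic ribosomal protein, beside Mrpl49, and Sars2, the mitochondrial seryl-tRNA synthetase gene, beside Mrps12. Mrpl46, of the large subunit, and Mrps11, of the small subunit, are partners of each other. Mrpl46 had 69.6, 69.4 and 72.4 CPM in IP and 29.7, 46.2 and 34.5 CPM in input (0.94 ± 0.17, SE, called), and Mrps11, given above, was not called at 0.72 ± 0.24 (SE). Of the 14 genes 9 were called higher, with a median of 0.78. By the exons of GENCODE M39, which can differ from those counted, over 10% of exon bases overlap another gene in 31 members (40.3%). This holds for 23.5% of protein-coding genes. In 28 of these members the other gene lies on the opposite strand. Of the 46 members with less overlap 32 were called higher with a median of 0.70, and of the 31 with more 20 were, with a median of 0.82.

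The 29 bases between the annotated starts of Mrpl46 and Mrps11 (GRCm39, chr7:78432838-78432866, written on the plus strand, towards Mrps11) are shown because both genes start from them:
Mrpl46 to Mrps11: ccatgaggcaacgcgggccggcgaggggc

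The 250 bases before each canonical start were searched on both strands for the letters CCGGAA, the core bound by ETS factors such as GABPA, and TGCGCA, part of the site of NRF1. Both factors are known regulators of nuclear genes for mitochondria. CCGGAA was in the windows of 22 members (28.6%) and 15.9% of protein-coding genes, TGCGCA in 14 (18.2%) and 8.47%, and both in 5 (6.49%) and 1.66%. TGCGCA reads the same on both strands and cannot share a base with the ETS core. Of the other letters searched, CCAAT was in 25 (32.5% against 35.5%), GGGCGG, the GC box, in 30 (39.0% against 47.3%) and AAGATGGCG, a YY1 site, in 1 (1.30% against 0.77%). The GC box can share bases with the ETS core. These matches are letters in a window and not sites.

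The members with both cores were Mrps16, Mrpl58, Mrpl22, Mrpl32 and Mrpl10, of which 4 were called higher and Mrpl10 was not. The windows of the 3 that have no head-to-head partner are printed, with that of Mrps22, the member below 0, to show how the cores lie. Capitals mark CCGGAA and TGCGCA on either strand, and each window is written 5' to 3' on the strand of its gene and ends at the base before the start. Build GRCm39 gives Mrps16 at chr14:20443714-20443963 (minus strand), Mrpl58 at chr11:115294321-115294570 (plus), Mrpl22 at chr11:58062225-58062474 (plus) and Mrps22 at chr9:98483721-98483970 (minus).
Mrps16: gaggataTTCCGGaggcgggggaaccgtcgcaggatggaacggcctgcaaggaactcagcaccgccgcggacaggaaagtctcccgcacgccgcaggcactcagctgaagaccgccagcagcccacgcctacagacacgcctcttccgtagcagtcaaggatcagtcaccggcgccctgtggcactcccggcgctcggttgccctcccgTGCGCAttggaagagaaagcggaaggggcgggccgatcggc
Mrpl58: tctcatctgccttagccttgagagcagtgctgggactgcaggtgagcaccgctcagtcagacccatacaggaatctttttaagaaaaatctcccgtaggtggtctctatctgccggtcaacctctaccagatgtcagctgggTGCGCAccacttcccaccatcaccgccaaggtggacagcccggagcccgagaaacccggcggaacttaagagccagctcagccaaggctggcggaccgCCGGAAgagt
Mrpl22: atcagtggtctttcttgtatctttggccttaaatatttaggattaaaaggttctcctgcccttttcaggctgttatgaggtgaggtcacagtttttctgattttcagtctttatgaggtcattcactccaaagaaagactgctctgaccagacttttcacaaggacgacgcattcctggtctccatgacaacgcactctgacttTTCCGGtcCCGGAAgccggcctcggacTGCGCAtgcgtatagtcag
Mrps22: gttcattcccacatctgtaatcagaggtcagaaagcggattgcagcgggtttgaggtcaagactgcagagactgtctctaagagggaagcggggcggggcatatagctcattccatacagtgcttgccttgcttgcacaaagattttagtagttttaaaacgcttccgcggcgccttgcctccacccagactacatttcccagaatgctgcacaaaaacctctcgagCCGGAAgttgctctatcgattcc

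The Mrps22 window has a CCGGAA near its end although the gene was not called higher. Over the family, with CCGGAA 15 of 22 members were called higher at a median log2 fold change of 0.75, and without it 37 of 55 at 0.72. With TGCGCA 12 of 14 were called higher at a median of 0.77, and without it 40 of 63 at 0.72. With CCAAT 14 of 25 were called higher at 0.60, and without it 38 of 52 at 0.75. With GGGCGG 22 of 30 were called higher at 0.81, and without it 30 of 47 at 0.69. None of these differences was tested.

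Other genes of mitochondrial translation are read beside the 12.9% of all genes called higher and 17.1% called lower. Among 5 mitochondrial ribosomal proteins with other symbols 3 rose: Chchd1 by 1.09 ± 0.23, Aurkaip1 by 1.07 ± 0.20 and Dap3 by 0.53 ± 0.14 (SE), all small subunit proteins. Gadd45gip1 of the large subunit stood at 0.51 ± 0.19 and Ptcd3 of the small subunit at -0.34 ± 0.15 (SE), below input in all 3 IP libraries. The median over 13 tested translation factor genes was -0.08, with 1 (7.69%) called higher and 1 lower, shares not above those of all genes. The riser was Tsfm, the exchange factor of the elongation factor Tufm, at 0.99 ± 0.15 (SE), and Taco1, an activator of translation of a complex IV message, stood at -0.66 ± 0.21 (SE). Of 27 genes of ribosome assembly and rRNA modification 6 (22.2%) rose and 0 fell, with a median of 0.46, among them the rRNA methyltransferases Mrm1 at 1.04 ± 0.17, Mrm3 at 0.80 ± 0.18 and Mrm2 at 0.66 ± 0.20 (SE). Rcc1l rose by 0.88 ± 0.17 and Noa1 by 0.51 ± 0.15 (SE).

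The nearest families gave these values in the same comparison, with the same libraries. Of 88 genes with a symbol of the cytosolic ribosomal proteins 41 were called higher and 1 lower, with a median of 0.57. The symbols take in Rps19bp1, a binding protein, and 4 rows named as pseudogenes, and without these 5 rows 39 of 83 were called higher, with a median of 0.57. Their near-identical pseudogene copies can take reads, so single values there are uncertain. Of 38 genes with symbols of nuclear complex I subunits, whose partners mitochondrial ribosomes make, 33 were called higher and 0 lower, with a median of 1.06. Ndufa4, known as a complex IV subunit, had the largest value there at 1.72 and its paralog Ndufa4l2 the smallest at -0.58, and without both 32 of 36 were called higher, with a median of 1.06. The 13 messages that mitochondrial ribosomes translate were all called lower, with a median of -5.83 and a range of -8.04 to -4.58. These RNAs lie inside mitochondria, apart from the tagged ribosomes, and the part of this in their values was not tested. The differences between these families were not tested.

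**Figure D4:**
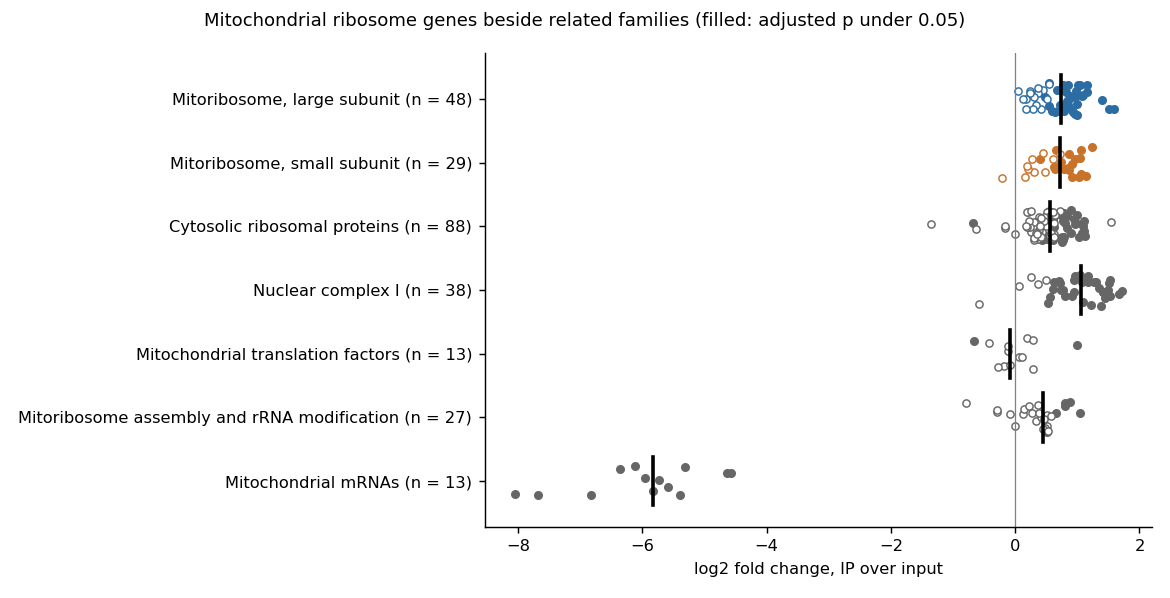
Log2 fold change of IP over input (x axis) for each gene of the mitochondrial ribosome and of related families (rows, with the number of genes tested), where filled points are genes called at an adjusted p under 0.05 and black bars mark medians. Both subunits lie around 0.7, complex I genes around 1.06, and the 13 mitochondrial messages between -8.04 and -4.58.

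A further 5 rows carry such symbols but are processed pseudogenes and were left out by the rule. Mrpl23-ps1 had 3.22, 3.84 and 2.68 CPM in IP and 1.31, 1.58 and 1.43 CPM in input, against 66.4, 73.1 and 76.9 CPM in IP and 24.6, 42.3 and 38.2 CPM in input for Mrpl23. The other 4 pseudogenes held at most 2.45 CPM in any library. Reads of a gene and its pseudogene may be shared. The pseudogene levels were far below those of Mrpl23, Mrpl27, Mrpl48 and Mrps36, but not of every member, since Mrps18b had 4.35 CPM in input replicate 1.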

How the data were processed

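RNA of 3 IP and 3 input libraries was measured by poly(A) selection and paired-end sequencing of 75 bp. Per the submitters' processing notes, the tools were HISAT2, featureCounts and DESeq2 and the genome was mm39; versions, annotation and strand setting are not given in the sources used here. The deposited counts are whole reads per gene without normalization. The authors' normalized signal is the counts divided by 1 size factor per library, and the authors' FPKM is per kb of gene length; neither was used. Log2 fold changes and p-values of the authors' DESeq2 table were used for 1 comparison of calls.

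Counts were tested with edgeR 4.0.16 (glmQLFit and glmQLFTest, R 4.3.3), TMM factors, filterByExpr by group, group as the only term, two-sided, with Benjamini-Hochberg adjustment over 18640 genes and an adjusted p under 0.05 as the threshold. SE is the log2 fold change divided by the square root of F. Coding length, exons, overlaps and promoters come from GENCODE M39 on GRCm39, which held all 77 genes; 32 canonical starts lie inside the span in the table, so the annotations differ. The test was checked on simulated counts in which 200 genes were changed 2-fold, where 90% were recovered and 4.26% of the calls were false. Those counts were drawn independently, without pool effects, pairing or a trend with length between libraries, so that the check does not cover these. Replicates are pools of 3 mice. The p-values of the main fit set the difference against the spread between pools within each group and leave out the pairing of IP and input. Intervals beyond SE were not computed, and reads carry no molecular identifiers.

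Same-numbered libraries come from the same tissue, per the series' design text, and are paired. Their deviations from the group means correlated at 0.35, 0.20 and 0.15, and those of different numbers between -0.31 and 0.16. The fit with the replicate block was an alternative, beside DESeq2 1.42.0, RLE and upper-quartile factors, library totals, no filter, a filter of 1 CPM, a length correction (spline of 4 degrees of freedom) and each library left out. Leaving out both libraries of a replicate was added after seeing the data.

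The members and lists were chosen with earlier results of these data known. Values in every library are given for the 5 largest and 5 smallest fold changes, the 3 highest and the lowest per kb in each subunit, the 2 genes on each side of the threshold, the widest spreads, the Mrps18 paralogs and Mrps30. Other members are named by role, and Mrpl46, Mrps11 and Mrpl23 for a partner gene. Ndufa4, Ndufa4l2 and Rps19bp1 were named, and the related families given without such rows, after their values were seen.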

Additional observations from a re-analysis of the deposited data

How the results depend on the processing

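The number of members called higher was 55 with DESeq2, 52 with RLE factors, 49 with upper-quartile factors, 44 with library totals alone, 53 without the filter, 51 with the strict filter, 60 with the replicate block, 53 with the length correction and 59 with both. It was 0 lower in each. Leaving out 1 library gave 37 (without IP replicate 3 or input replicate 3) to 61 (without input replicate 2), and 35 of the 52 calls were kept each time. Mrps17 lost its call in all 6 such fits and Mrps27, Mrpl16, Mrpl32 and Mrpl9 in 5. Without both libraries of replicate 3, 4 were called; fewer samples and fewer degrees of freedom enter that fit, as in the fits without replicate 1 or 2 (42 and 46), and why it differs from these was not tested. The median log2 fold change without 1 library was 0.59 to 0.89 (large subunit 0.63 to 0.92, small 0.56 to 0.89), and rho with gene length -0.46 to -0.36. After the length correction rho was -0.058, and -0.048 with the block, by the construction of the correction.

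Library totals alone moved the median of all genes from -0.07 to -0.17. Members near 0 changed sign. Mrpl3 stood at -0.058 with library totals. Without 1 library Mrps18b ran from -0.10 (IP replicate 2) to 0.44 and was -0.065 without input replicate 1; Mrpl39 ran from -0.018 (input replicate 1) to 0.42; and Mrps22 from -0.29 to 0.023 (input replicate 2). With both libraries of replicate 1 left out Mrpl39 stood at -0.034. With the paired fit 8 members gained a call and 0 lost one. All members lay above the level of 3 counts, and the part of counting noise in the SE was not tested. Mrps18b, with the lowest level, had the widest SE (0.32).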
